A study of Mus musculus with 18 samples.

Results

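Transcripts of 10 genes that mark vascular smooth muscle cells and pericytes were followed in the mouse heart after a single 25 Gy dose of radiation. The genes were chosen by name, as known markers of these 2 mural cell types, with earlier results of these data known. Each was found in the deposited tables through its Ensembl gene identifier. They are 10 of 30072 genes listed, and all 10 were among the 15054 genes that passed the filter on low values (at least 0.23 CPM, a count scaled to the size of its library, in at least 6 mice). RNA came from the interventricular septum of 18 CD-1 mice, an outbred stock, aged 8 weeks or more, of both sexes, with no sex given for a single library. Of these, 6 were controls that had isoflurane anesthesia without the 25 Gy dose (ctrl). Another 6 were taken 2 weeks after 25 Gy given under the same anesthesia (2wk), and 6 were taken 6 weeks after it (6wk). Single mice are named by group and replicate number. The study's methods describe X-rays given to the heart under image guidance and state that sham controls also had CT imaging. No transgene or Cre was involved. Both irradiated groups were compared with the same 6 controls, so those comparisons are not independent of each other. No collection time is given for the controls and no exact age per mouse. Time after the dose and age at collection thus cannot be told apart.

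Mural cells wrap the endothelial tube. Smooth muscle cells coat arteries and arterioles and contract when myosin light chain kinase phosphorylates their myosin, whereas pericytes sit on capillaries and are held there by platelet-derived growth factor from the endothelium acting on its receptor. Many contractile genes of smooth muscle are driven by serum response factor (SRF) and its partner myocardin through a DNA element called the CArG box.

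Total counts were between 11522987 and 15501019 per library. The scaling factors of the trimmed mean of M values (TMM) ran from 0.844 to 0.991 in controls, from 0.962 to 1.03 in 2wk mice and from 1.04 to 1.13 in 6wk mice. The share of counts from mitochondrially encoded genes ran in the opposite order, from 19.8% to 25.0% in controls and from 16.5% to 20.05% in 6wk mice. Control 4 stood apart in markers of other cells. Its summed CPM was 3923 over 8 fibroblast markers, 516 over 6 activated fibroblast markers and 1582 over 4 atrial markers. Each sum was the highest of all 18 mice. The tests between groups and the correlations between pairs of the mural genes were also computed without control 4. The correlations with neighbouring genes, with Actc1 and with genes of like pattern were not, nor was the split of mice by Abcc9. On the atrial markers 2wk 5 (1247 CPM) and control 5 (811 CPM) came next. The tissue is bulk, so fewer cells of a type and less RNA per cell cannot be told apart.

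Promoter sequence was taken from RefSeq (GRCm38.p6) for 7 of the 10 genes. The stretches printed here are those of Cspg4 and Mylk, the only 2 genes that passed the test, and of Acta2, which had the largest fold change at 2 weeks. Each is the 250 bases before an annotated start, read 5′ to 3′ on the gene's strand. Capitals mark stretches that match the CArG box with at most 1 mismatch.
Acta2, chr19:34255374-34255623, minus strand: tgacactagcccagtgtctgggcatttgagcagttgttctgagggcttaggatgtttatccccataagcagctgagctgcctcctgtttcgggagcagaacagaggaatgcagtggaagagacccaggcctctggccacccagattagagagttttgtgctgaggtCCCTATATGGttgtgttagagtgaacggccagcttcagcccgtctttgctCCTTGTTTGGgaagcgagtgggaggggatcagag
Cspg4, chr9:56864854-56865103, plus strand: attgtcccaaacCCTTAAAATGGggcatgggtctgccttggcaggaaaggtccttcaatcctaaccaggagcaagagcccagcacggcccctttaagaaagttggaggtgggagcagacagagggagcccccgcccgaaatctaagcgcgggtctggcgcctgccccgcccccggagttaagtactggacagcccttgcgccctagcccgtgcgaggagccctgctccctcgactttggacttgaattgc
Mylk, chr16:34784700-34784949, plus strand: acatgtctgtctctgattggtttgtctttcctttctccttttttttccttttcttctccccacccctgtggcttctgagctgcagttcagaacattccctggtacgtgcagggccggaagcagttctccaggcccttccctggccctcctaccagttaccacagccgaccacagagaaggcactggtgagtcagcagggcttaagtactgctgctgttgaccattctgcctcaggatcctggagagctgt
Both strands were searched over windows that ran from 250 bases before to 50 bases after each start. Acta2 held 2 such matches, beginning 84 and 34 bases before the start, and Cspg4 held a pair of overlapping ones beginning 238 and 237 bases before it. The other 5 genes, Rgs5, Abcc9, Cnn1, Smtn and Mylk, had no match in their windows. The Mylk window lies inside the annotated gene, which begins at chr16:34745210. The Smtn window, chr11:3539243-3539542, likewise lies inside its gene, which on the minus strand begins at chr11:3540612. Their lack of a match covers only the starts used. Most of the Acta2 stretch also lies inside its annotated gene, which on the minus strand begins at chr19:34255590, so its distances refer to the start used. A match at this stringency was held by 21.1% of the 32851 windows searched. None of the 7 windows held an exact CArG box, against 1.63% of all windows. A match describes the letters and is not a measured binding site.

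In the controls, levels compared per transcript length (in TPM, the length-scaled unit) spanned a wide range. Smtn, which encodes the actin-associated protein smoothelin, was highest at 76.3 ± 6.37 TPM (SD, n = 6). Rgs5, a regulator of G protein signalling that marks pericytes, stood at 70.5 ± 7.53 TPM. Acta2, smooth muscle α-actin, was at 62.5 ± 20.3 TPM and Abcc9 at 59.5 ± 16.97 TPM. A step lower came Pdgfrb, the platelet-derived growth factor receptor β of pericytes, at 26.6 ± 4.29 TPM, and Tagln, which encodes the actin-binding protein transgelin, at 17.6 ± 5.84 TPM. Myh11, the smooth muscle myosin heavy chain, was at 9.90 ± 2.59 TPM and Cspg4, the proteoglycan NG2, at 7.77 ± 1.13 TPM. Mylk was at 4.92 ± 0.874 TPM and Cnn1, encoding the actin-binding protein calponin, was lowest at 1.25 ± 1.002 TPM. In this order each gene's range over the 6 controls overlapped that of the next, with Mylk and Cnn1 as the exception (lowest Mylk 4.05 TPM, highest Cnn1 3.16 TPM).

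**Figure D1:**
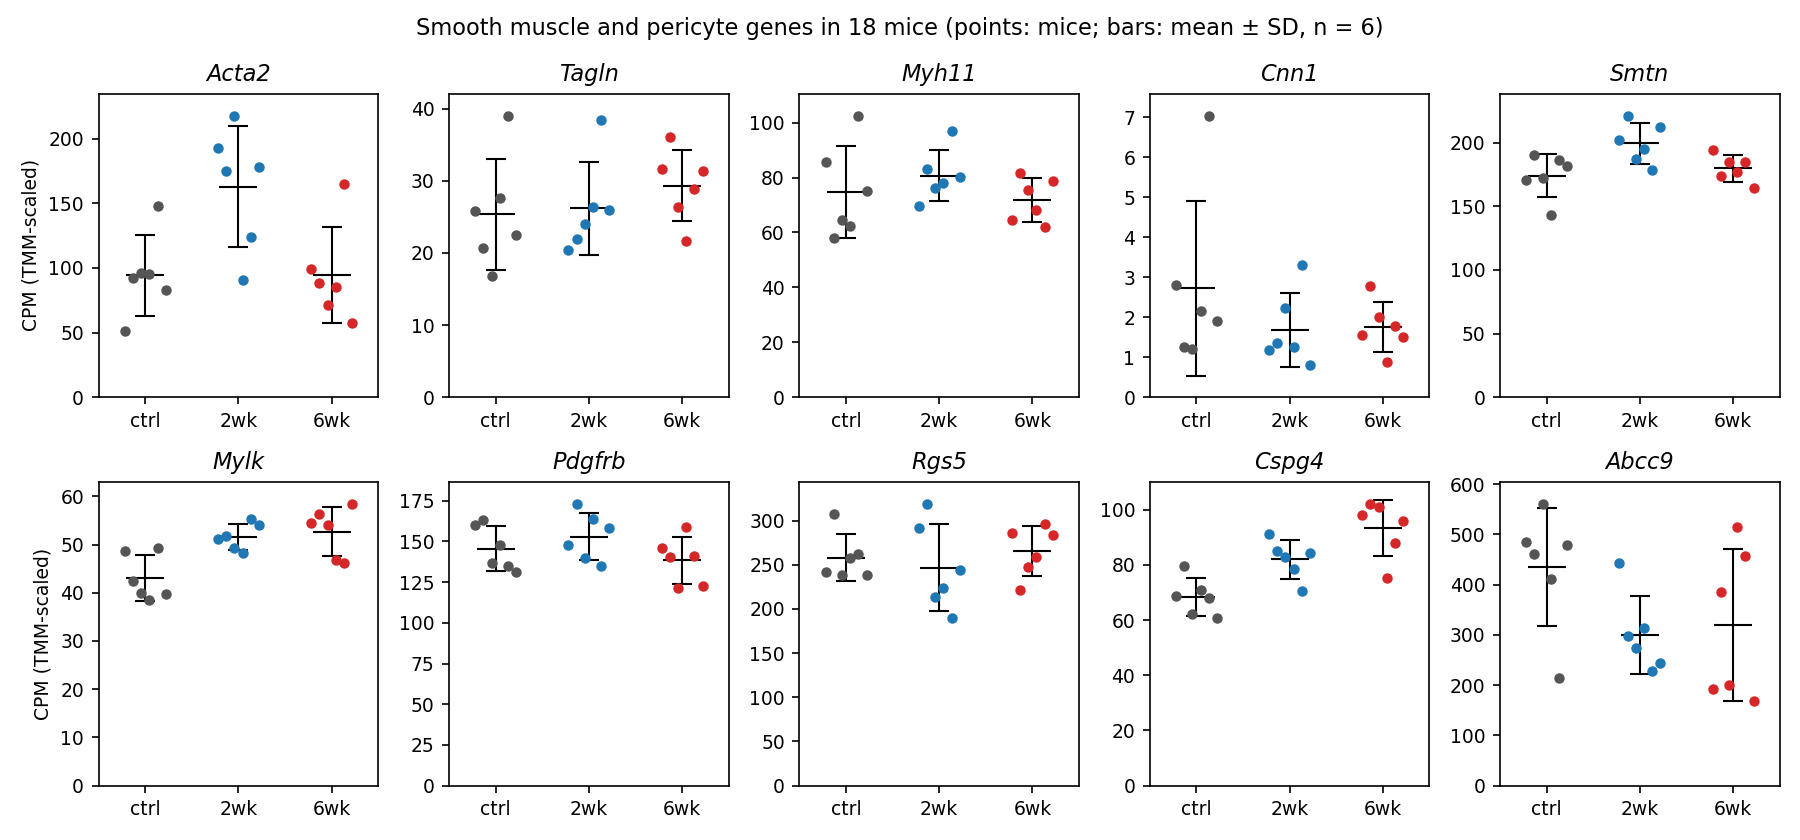
CPM after TMM scaling (vertical axes, each from 0) in the control (ctrl), 2-week (2wk) and 6-week (6wk) mice for each gene, with 1 point per mouse and bars for the mean ± SD of 6 mice. Cspg4 sits between 60.7 and 79.6 CPM in controls and between 75.4 and 102 CPM at 6 weeks, and Abcc9 separates into a high and a low set of mice in every group.

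Few of the mural genes passed the test. At 2 weeks none of the 10 genes passed edgeR's quasi-likelihood test with Benjamini-Hochberg adjustment over all genes, where 5.02% of all genes tested did. DESeq2 called 3 of the 10 and limma voom 0, and 4 genes (Acta2, Smtn, Mylk and Cspg4, all higher) had an unadjusted p under 0.05. At 6 weeks 2 of 10 passed, Mylk and Cspg4, both higher, where 25.0% of all genes tested passed and 13.5% passed as higher. A share of 2 in 10 is near that background and is not a result about the set. Between 6 and 2 weeks none passed, against 5.33% of all genes, with 3 genes (Acta2, Smtn and Cspg4) at an unadjusted p under 0.05. DESeq2 and limma voom each called 1 of the 10 there. The median log2 fold change of the 10 was 0.09 at 2 weeks and 0.02 at 6 weeks, and over all genes tested it was -0.0015 and -0.019. No gene of the 10 had groups without overlap in any comparison. Over all genes 3.24%, 9.23% and 3.54% did in the 2wk, 6wk and 6wk against 2wk comparisons. Counts of 0 in 10 are near these shares, for overlap as for calls, and are not a result about the set.

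**Figure D2:**
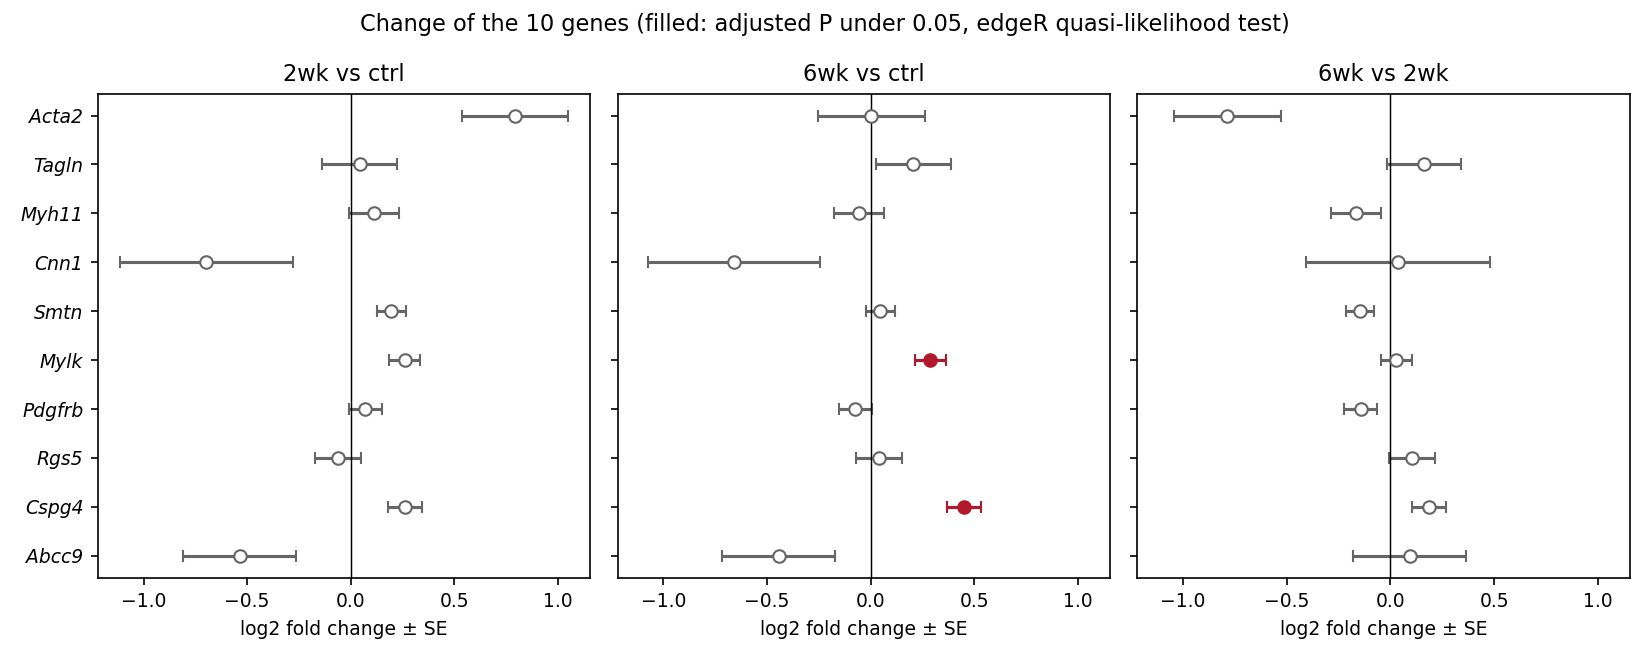
Log2 fold change (horizontal axis) with its standard error for the 10 genes in the 3 comparisons, filled where the adjusted P was under 0.05. Only Mylk (0.29) and Cspg4 (0.45) at 6 weeks are filled, and Acta2 lies at 0.79 at 2 weeks and at 0.00 at 6 weeks.

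Cspg4 had the firmest change. It is a transmembrane proteoglycan found on pericytes, on arteriolar smooth muscle and on some glial precursors. The lowest, median and highest control values were 60.7, 68.4 and 79.6 CPM. At 2 weeks they were 70.4, 83.7 and 91.1 CPM, and at 6 weeks 75.4, 97.1 and 102 CPM. The group medians rose from ctrl to 2wk to 6wk, with 5 of 6 mice at 6 weeks above every control and the mouse 6wk 4 inside the control range. The log2 fold change at 6 weeks was 0.45 (SE 0.0819, edgeR adjusted P = 0.000571), a 1.37-fold rise. Without control 4 it was 0.46 (edgeR adjusted P = 0.000893), and over all 28 alternative settings the adjusted P lay between 3.4e-06 and 0.00191. At 2 weeks the value was 0.26 (SE 0.0819, edgeR adjusted P = 0.0701), short of the threshold. Leaving out control 2 (edgeR adjusted P = 0.0383) or 6wk 4 (edgeR adjusted P = 0.0410) brought it under 0.05, in a range over the alternatives of 0.0101 to 0.148. The step from 2 to 6 weeks was 0.19 (SE 0.0815, edgeR adjusted P = 0.188).

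Mylk encodes myosin light chain kinase of smooth muscle and non-muscle cells, including endothelium. Controls ran from 38.6 through a median of 41.2 to 49.3 CPM. At 2 weeks the values were 48.3, 51.5 and 55.2 CPM, and at 6 weeks 46.2, 54.2 and 58.3 CPM. In each irradiated group 4 of 6 mice lay above every control and the other two lay inside the upper part of the control range. At 6 weeks Mylk rose 1.22-fold, with a log2 fold change of 0.29 (SE 0.0757, edgeR adjusted P = 0.00879). Without control 4 it was 0.26 (edgeR adjusted P = 0.0194), and over the alternatives the adjusted P stayed between 0.000187 and 0.0243. At 2 weeks the difference was of like size, 0.26 (SE 0.0757), with an edgeR adjusted P of 0.0536. That value fell under 0.05 when any of control 1 (0.0310), control 5 (0.0360), 6wk 4 (0.0487) or 6wk 5 (0.0458) was left out, within a range of 0.0105 to 0.114 over the alternatives. Of the Mylk transcript sequence 5.52% was shared, as runs of 31 bases, with other annotated transcripts, mostly of antisense genes that overlap its exons.

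The 6-week calls coincided with shifts in other cells' markers. Cardiomyocyte markers summed to 85299 to 112756 CPM in controls and to 75530 to 83787 CPM at 6 weeks, with 7 of 8 lower and none of the 8 at 0. Markers of macrophages and leukocytes summed to 139 to 436 CPM in controls and to 404 to 559 CPM at 6 weeks, with 8 of 8 higher. Of 8 endothelial markers 2 were higher and 2 lower at 6 weeks, with sums of 1304 to 1498 CPM and 1383 to 1769 CPM. Their part in the Mylk and Cspg4 values was not tested.

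Acta2 was the most variable of the well expressed contractile genes. Control mice ran from 50.9 through a median of 93.7 to 148 CPM. At 2 weeks the values were 90.9, 176 and 218 CPM, and at 6 weeks 57.3, 87.1 and 165 CPM. At 2 weeks 4 of 6 mice exceeded every control and every 6-week mouse, and 2wk 4 and 2wk 5 were inside the control range. The 2-week mean was 1.73-fold the control mean, a log2 difference of 0.79 (SE 0.256) that missed the threshold at an edgeR adjusted P of 0.0811. At 6 weeks the difference was 0.00 (SE 0.256, edgeR adjusted P = 0.992), and from 2 to 6 weeks it was -0.79 (SE 0.256, edgeR adjusted P = 0.0794). Whether the 2-week difference passed turned on single mice, with an adjusted P of 0.0423 without 2wk 4, 0.0447 without control 5 and 0.0471 without 6wk 5. The 6wk against 2wk difference had an adjusted P of 0.0256 and a value of -1.02 without 6wk 5. Over the alternatives the adjusted P spanned 0.00805 to 0.162 and 0.0256 to 0.172 in these comparisons. Acta2 is also a gene of activated fibroblasts. Their 6 markers summed to 68.9 to 516 CPM in controls (516 in control 4), 116 to 169 CPM at 2 weeks and 129 to 383 CPM at 6 weeks. None of these 6 markers was called by edgeR in any comparison, and 1, 1 and 2 were at an unadjusted p under 0.05 in the 2wk, 6wk and 6wk against 2wk comparisons. Their part in the Acta2 values was not tested. Acta2 shared 1.39% of its 31-base runs with other transcripts, and its within-group correlation with the cardiac actin gene Actc1 was 0.39 (Pearson, n = 18, permutation p = 0.144).

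None of the other contractile genes besides Mylk passed the test. Smtn had control values of 144, 177 and 190 CPM (lowest, median and highest), 2-week values of 178, 199 and 221 CPM and 6-week values of 165, 181 and 195 CPM. All 3 groups overlapped, with 4 of 6 mice at 2 weeks above every control, and the log2 differences were 0.20 (SE 0.0689, edgeR adjusted P = 0.111) at 2 weeks and 0.05 (SE 0.0690, edgeR adjusted P = 0.672) at 6 weeks. Tagln ranged from 16.7 to 39.0 CPM in controls, from 20.5 to 38.4 CPM at 2 weeks and from 21.7 to 36.1 CPM at 6 weeks, with log2 differences of 0.04 (SE 0.180) and 0.21 (SE 0.180). Its exons overlap Pcsk7 and Gm48529 on the other strand and 62.2% of its 31-base runs recur there, so its count is uncertain, as the strand setting of the counting is not given in the sources used here. The same holds in part for Smtn, which shares 12.003% with the antisense Gm11946. Myh11 ranged from 58.1 to 102 CPM in controls, from 69.6 to 97.1 CPM at 2 weeks and from 62.1 to 81.8 CPM at 6 weeks. Its log2 differences were 0.11 (SE 0.121, edgeR adjusted P = 0.651) and -0.06 (SE 0.121, edgeR adjusted P = 0.784). Cnn1 was scarce, with 11 to 93 counts per library. It ranged from 1.20 to 7.03 CPM in controls, from 0.806 to 3.31 CPM at 2 weeks and from 0.889 to 2.78 CPM at 6 weeks, and the log2 differences of -0.70 (SE 0.416) and -0.66 (SE 0.415) were not resolved at this depth and spread. The highest value was that of control 5.

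With TMM scaling the pericyte genes Pdgfrb and Rgs5 had group differences close to 0. Pdgfrb ranged from 131 to 163 CPM in controls, from 135 to 173 CPM at 2 weeks and from 122 to 159 CPM at 6 weeks. Its log2 differences from control were 0.07 (SE 0.0798, edgeR adjusted P = 0.668) and -0.07 (SE 0.0799, edgeR adjusted P = 0.554). Rgs5 ranged from 238 to 308 CPM in controls, from 190 to 318 CPM at 2 weeks and from 221 to 296 CPM at 6 weeks, with differences of -0.06 (SE 0.111, edgeR adjusted P = 0.805) and 0.04 (SE 0.111, edgeR adjusted P = 0.828). The groups overlapped throughout for both genes. These differences are relative to the TMM scaling. On the log2(TPM + 1) scale the median of all genes moved to 0.29 at 6 weeks, and Pdgfrb had 0.30 (limma adjusted P = 0.00924). Rgs5 passed at 6 weeks in 3 of 28 alternatives, with values up to 0.47 and a smallest adjusted P of 0.0033. Pdgfrb passed in 2 of 28 at 2 weeks and in 2 of 28 at 6 weeks. A miss of the threshold does not show equal levels, and the standard errors give the precision.

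Abcc9 was abundant and split the mice. It encodes SUR2, the sulfonylurea receptor subunit of ATP-sensitive potassium channels in cardiac muscle, smooth muscle and pericytes. Control values were 485, 460, 559, 411, 215 and 480 CPM in mice 1 to 6. At 2 weeks they were 443, 298, 273, 313, 228 and 244 CPM, and at 6 weeks 193, 385, 201, 514, 457 and 169 CPM. The widest gap in log2 CPM over the 18 mice lay between 313 and 385 CPM, with 9 mice on each side. It measured 0.30, where the next widest gap was 0.19. The upper side held 5 controls, 1 mouse at 2 weeks and 3 mice at 6 weeks. The log2 difference from control was -0.54 (SE 0.273, edgeR adjusted P = 0.279) at 2 weeks and -0.44 (SE 0.272, edgeR adjusted P = 0.260) at 6 weeks, and no alternative brought either under 0.05.

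The same 9 mice stood on the upper side for 2 genes next to Abcc9 on chromosome 6 (GRCm38, Abcc9 at chr6:142587862-142702315, minus strand). Kcnj8 (chr6:142564837-142571614), the pore-forming Kir6.1 subunit that pairs with SUR2, lies 16.2 kb away. Ldhb (chr6:142490249-142507957), a lactate dehydrogenase subunit gene, lies 79.9 kb away. Kcnj8 was at 17.9 to 26.7 CPM in the 9 upper mice and at 7.62 to 12.2 CPM in the other 9, with a gap of 0.54 in log2 CPM and a next widest gap of 0.24. Ldhb was at 512 to 855 CPM in the upper 9 and at 154 to 276 CPM in the other 9, with a gap of 0.89 in log2 CPM, where the next widest gap was 0.22. All 18 mice thus fell on the same side for all 3 genes, the groups being mixed on both sides. These genes were picked after their values were seen, from 131 pairs of a member and a tested gene within 500 kb. In those pairs the within-group deviations of Abcc9 and Ldhb were the single relation with an adjusted permutation P under 0.05 (adjusted P = 0.00262). Kcnj8 had r = 0.82 with Abcc9 (adjusted permutation P = 0.0504). The other tested neighbours of Abcc9 were Golt1b (r = 0.67), Cmas (0.63), St8sia1 (0.60), Pyroxd1 (0.55), Recql (0.48), Etnk1 (0.28) and C2cd5 (0.05). Their adjusted permutation P ran from 0.286 to 0.941. On log2(TPM + 1) Cmas had r = 0.20 and St8sia1 0.16. Because the mice formed 2 clusters, correlations are given inside each, with 4 computed.

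Within the upper 9 mice Abcc9 and Ldhb had r = 0.57 (rho 0.55; exact permutation p = 0.106 and 0.133), and within the lower 9 r = 0.60 (rho 0.68; exact permutation p = 0.0880 and 0.0503). The adjusted P for r was 0.141 in both, and r dropped to 0.20 and 0.29 with the 2 farthest mice left out. Abcc9 and Kcnj8 had r = 0.37 in the upper 9 (rho 0.42; exact permutation p = 0.322 and 0.270, adjusted 0.322 and 0.270), and 0.55 without the 2 farthest mice. In the lower 9, with the groups pooled, they ran against each other, with r = -0.84 (rho -0.82; exact permutation p = 0.00635 and 0.0108, adjusted P = 0.0254 and 0.0431), and -0.93 without the 2 farthest mice. Group means were not removed inside the clusters, so this p does not separate a group offset from a relation among mice. In those 9 mice the 5 from the 2-week group had the highest Abcc9 and the lowest Kcnj8, and no coefficient is given within a group because none holds 6 of these mice. From the lowest to the highest Abcc9 of those 5, Kcnj8 was at 9.41, 9.96, 8.34, 7.62 and 7.98 CPM. None of the 3 genes passed the test for a difference between groups. The fitted log2 differences were -1.22 (SE 0.376, edgeR adjusted P = 0.0675) for Ldhb and -0.94 (SE 0.284, edgeR adjusted P = 0.0622) for Kcnj8 at 2 weeks, and -0.83 (SE 0.373, edgeR adjusted P = 0.115) and -0.43 (SE 0.278, edgeR adjusted P = 0.282) at 6 weeks. The labels give no litter, batch or sex per mouse with which to compare the split.

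**Figure D3:**
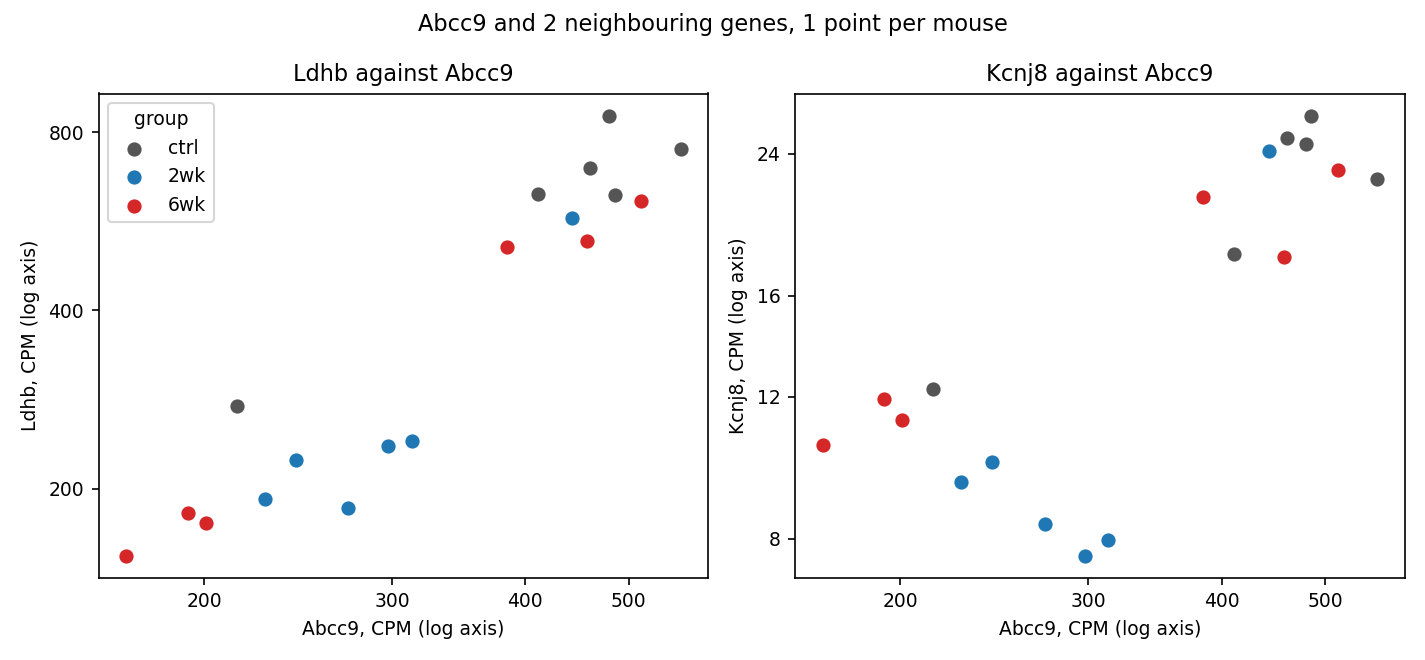
CPM of Ldhb (left, vertical log axis) and Kcnj8 (right, vertical log axis) against CPM of Abcc9 (horizontal log axis), 1 point per mouse coloured by group. The mice form 9 upper and 9 lower points in both panels with no mouse between 276 and 512 CPM of Ldhb, and each of the 3 groups has mice in both sets.

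Variation among mice of the same group was also compared between genes. Of 45 pairs of the 10 genes, 3 had an adjusted permutation P under 0.05 for Pearson's r of the deviations from group means over 18 mice. They were Tagln with Cnn1 (r = 0.83, permutation p = 0.00053, adjusted P = 0.0238), Myh11 with Cnn1 (r = 0.75, permutation p = 0.00172, adjusted P = 0.0387) and Myh11 with Mylk (r = 0.74, adjusted permutation P = 0.0393). By Spearman's rho these were 0.73, 0.57 and 0.74, and no pair passed on rho, where the smallest adjusted permutation P was 0.0571. Without the 2 farthest mice the coefficients were 0.71, 0.56 and 0.75, and no pair passed. Without control 5 or without 2wk 5 no pair passed either, and these are the mice with the highest Tagln, Myh11 and Cnn1 of their groups. Atrial markers summed to 811 CPM in control 5 and to 1247 CPM in 2wk 5, and their part in these correlations was not tested. The coefficients themselves stayed between 0.73 and 0.88, 0.59 and 0.80, and 0.66 and 0.80 with any 1 mouse left out, so the direction held while the adjusted P did not. Acta2 had r of 0.00 with Tagln, -0.22 with Myh11 and 0.14 with Cnn1.

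Other genes of the same cells and pathways were read from fixed lists, all of whose genes passed the filter. The lists were chosen with earlier results of these data known, so their counts are a description and not a test of the lists. Over all genes tested 3.09% were called higher and 1.93% lower at 2 weeks, 13.5% and 11.5% at 6 weeks, and 3.31% and 2.01% from 2 to 6 weeks. Of 14 other smooth muscle genes, none passed at 2 weeks, and at 6 weeks 2 were higher and 1 lower with a median log2 fold change of -0.01. Cald1, which encodes the actin-binding caldesmon, rose by 0.70 (SE 0.106, edgeR adjusted P = 0.000121) from 66.6 ± 8.74 to 108 ± 19.6 CPM (SD, n = 6), with no overlap between the groups. Ppp1r14a, an inhibitor of myosin phosphatase, was higher by 0.49 (SE 0.171, edgeR adjusted P = 0.0429), a call that ended without any of 8 single mice (controls 2, 3, 4 and 6 and mice 1 to 4 at 6 weeks), with an adjusted P between 0.0577 and 0.0935. Synpo2, which encodes the Z-disc and actin protein synaptopodin 2, was lower by -0.46 (SE 0.0919, edgeR adjusted P = 0.0013).

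Of 19 other pericyte genes 1 was higher at 2 weeks and 5 were higher at 6 weeks, with none lower and medians of 0.14 and 0.21. Mcam, an adhesion molecule of pericytes, smooth muscle and endothelium, stood out. Its lowest, median and highest values were 28.4, 32.7 and 34.8 CPM in controls, 44.0, 52.2 and 62.3 CPM at 2 weeks and 80.7, 88.2 and 115 CPM at 6 weeks, with no overlap between any of the 3 groups. The log2 fold change was 0.70 (SE 0.0954, edgeR adjusted P = 0.000445) at 2 weeks and 1.53 (SE 0.0961, edgeR adjusted P = 9.05e-09) at 6 weeks. Vtn, the adhesive glycoprotein vitronectin, rose at 6 weeks by 0.76 (SE 0.154, edgeR adjusted P = 0.00137) with no overlap. The other 3 were smaller, with log2 rises of 0.48 for Higd1b, 0.47 for Cox4i2 and 0.29 for Ndufa4l2, which encode small mitochondrial proteins, with 5 of 6 mice above every control for each. The receptor Notch3 had 0.32 at 2 weeks (SE 0.0927, edgeR adjusted P = 0.0529) and 0.24 at 6 weeks (SE 0.0927, edgeR adjusted P = 0.0633).

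Around myosin light chain kinase, 1 of 14 genes was higher and 3 were lower at 6 weeks. Myl6, the essential light chain of smooth muscle and non-muscle myosin, rose by 0.40 (SE 0.0736, edgeR adjusted P = 0.00485) at 2 weeks and by 0.66 (SE 0.0736, edgeR adjusted P = 6.82e-06) at 6 weeks. Mylk4 and the cardiac kinase gene Mylk3, by contrast, were lower at 6 weeks, with log2 fold changes of -1.42 (SE 0.150, edgeR adjusted P = 3.87e-06) and -0.42 (SE 0.0952, edgeR adjusted P = 0.00307). Ppp1r12b, a regulatory subunit of myosin phosphatase found in striated muscle, had -0.36 (SE 0.0497, edgeR adjusted P = 5.04e-05). These falls stood beside the lower cardiomyocyte markers given earlier, whose part in them was not tested. On the log2(TPM + 1) scale, where the median of all genes moved to 0.29 at 6 weeks, Mylk3 had -0.00, Synpo2 -0.04 and Ppp1r12b 0.08, so these 3 calls are relative to the TMM scaling.

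Of 10 SRF and myocardin regulators, Mrtfa, a myocardin-related coactivator that responds to actin, rose by 0.38 (SE 0.0779, edgeR adjusted P = 0.0101) at 2 weeks and by 0.50 (SE 0.0777, edgeR adjusted P = 0.000142) at 6 weeks. The 2-week call ended on log2(TPM + 1) (0.34, limma adjusted P = 0.101) and log2(TPM + 0.1) (0.41, limma adjusted P = 0.0838). Myocd, which encodes myocardin in cardiac and smooth muscle, had -0.31 (SE 0.0971, edgeR adjusted P = 0.0259) at 6 weeks but 0.15 on the log2(TPM + 1) scale, and the call ended without any of 6 single mice (controls 3, 5 and 6 and mice 1, 3 and 6 at 6 weeks) at an adjusted P of 0.0509 to 0.0773. Srf itself had 0.06 (SE 0.0908) and -0.16 (SE 0.0909, edgeR adjusted P = 0.218).

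Among the 5 other ligands and receptors of the platelet-derived growth factor family, Pdgfb, the endothelial ligand of Pdgfrb, rose at 6 weeks by 0.74 (SE 0.120, edgeR adjusted P = 0.000225), from 13.02 ± 2.43 to 21.8 ± 2.77 CPM (SD, n = 6) with no overlap, while Pdgfrb did not pass. From 2 to 6 weeks Pdgfb rose by 0.55 (SE 0.119, edgeR adjusted P = 0.0163). Pdgfa had 0.27 (SE 0.0930, edgeR adjusted P = 0.0426) at 6 weeks and lost the call without any of 8 single mice (controls 1, 2, 4 and 5, 2wk 6 and mice 2, 3 and 6 at 6 weeks), at an adjusted P of 0.0501 to 0.106. Pdgfra, a receptor of fibroblasts, was lower at 2 weeks by -0.55 (SE 0.128, edgeR adjusted P = 0.0193) and at 6 weeks by -0.88 (SE 0.129, edgeR adjusted P = 8.43e-05). The 2-week call ended with library size only (-0.40, adjusted P = 0.0727), on log2(TPM + 1) (-0.25, adjusted P = 0.222) and on log2(TPM + 0.1) (-0.27, adjusted P = 0.220). None of the 3 channel partners Kcnj8, Kcnj11 and Abcc8 passed in any comparison by edgeR, with an unadjusted p under 0.05 for Kcnj8 at 2 weeks and for Kcnj11 at 6 weeks.

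From 2 to 6 weeks 7 genes of these lists passed, where 5.33% of all genes tested did. They were 1 of 14 other smooth muscle genes, 1 of 19 other pericyte genes and 1 of 5 platelet-derived growth factor genes. Around myosin light chain kinase 1 of 14 was higher and 3 were lower. Besides Pdgfb the 7 genes included Mcam, higher by 0.84 (SE 0.0937, edgeR adjusted P = 0.000164), and Mylk4, lower by -1.08 (SE 0.149, edgeR adjusted P = 0.00111). Ppp1r12b was lower by -0.22 (SE 0.0497, edgeR adjusted P = 0.0200), but by -0.10 with library size only (adjusted P = 0.280) and on both TPM scales (limma adjusted P = 0.433 and 0.442), where the call ended. The calls for Cald1 (0.41, edgeR adjusted P = 0.0323), Myl6 (0.26, edgeR adjusted P = 0.0467) and Mylk3 (-0.38, edgeR adjusted P = 0.0294) each ended without single mice, in 8, 12 and 5 of the 18 cases, at adjusted P up to 0.0736, 0.0995 and 0.0643. Mylk3 also lost the call with library size only (-0.26, adjusted P = 0.0762) and on log2(TPM + 1) (-0.16, limma adjusted P = 0.386) and log2(TPM + 0.1) (-0.16, limma adjusted P = 0.394).

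**Figure D4:**
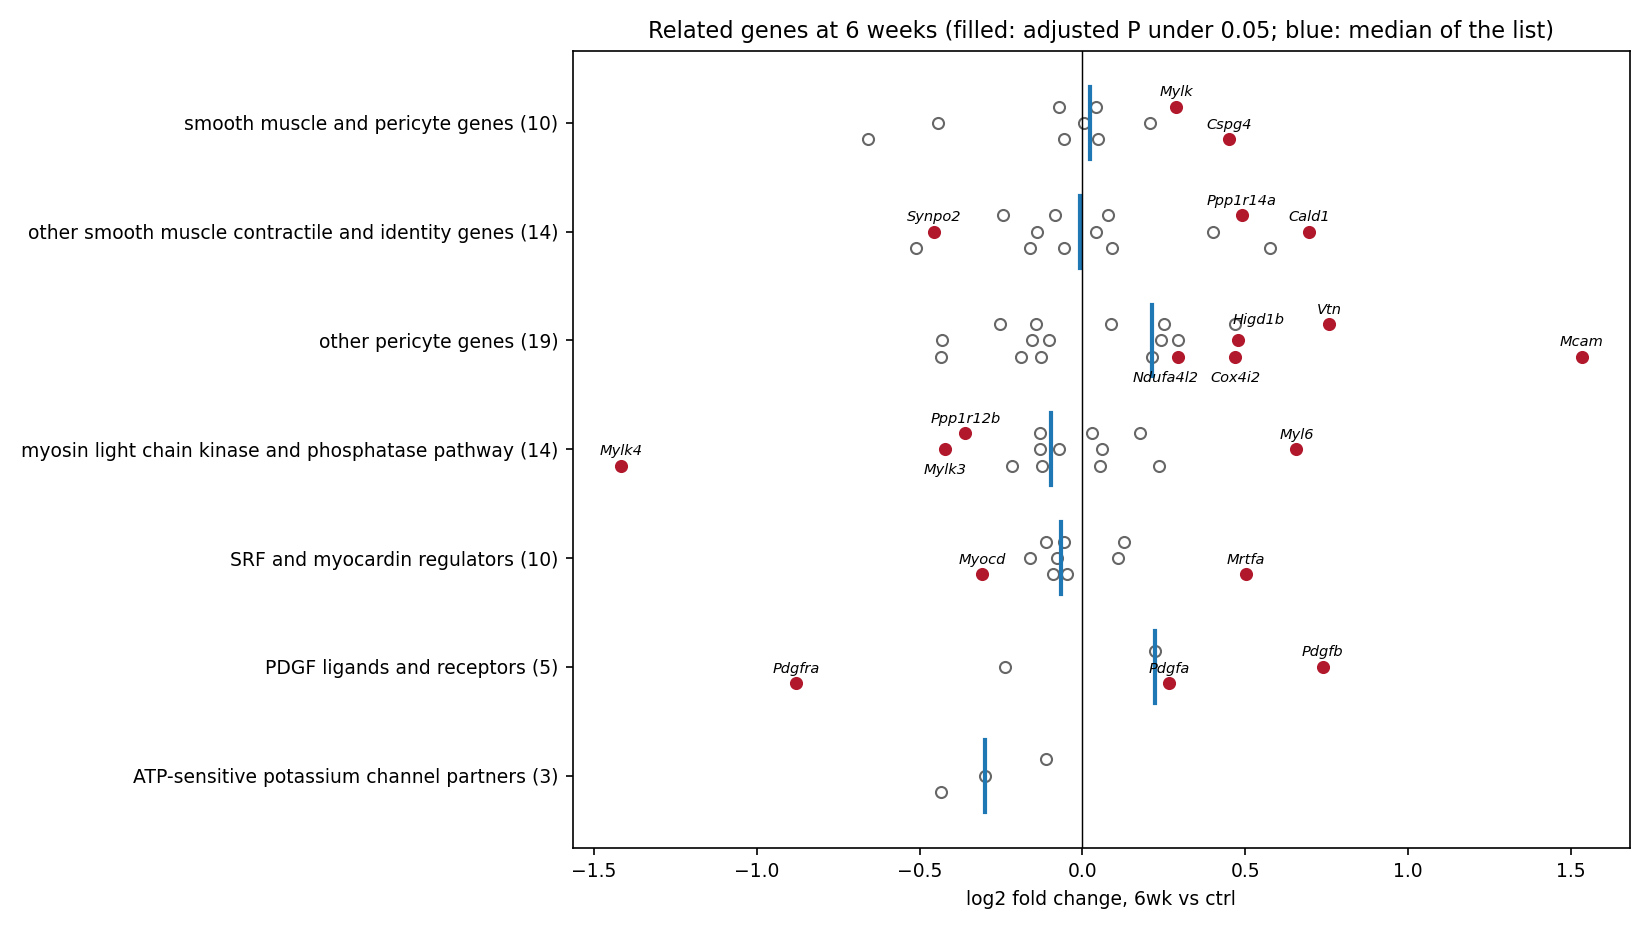
Log2 fold change from control at 6 weeks (horizontal axis) for the 10 genes and 6 lists of related genes (rows, number of genes in brackets), with 1 point per gene, filled and named where the adjusted P was under 0.05, and a blue line at each list's median. Called pericyte genes all lie to the right of 0, up to Mcam at 1.53, and Mylk4 is farthest left at -1.42.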

How the data were processed

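Total RNA from 18 septa was sequenced as paired reads, and the authors' pipeline, per the labels, used CASAVA 1.8 and Salmon 1.0 with GRCm38. The deposited tables hold an estimated count and a TPM value per gene. The estimated counts were rounded to whole numbers. Symbols came from the GENCODE M21 annotation, found for 29301 of 30072 genes. All 18 mice were fitted together with edgeR 4.0.16 (R 4.3.3; glmQLFit and glmQLFTest, TMM scaling, at least 0.23 CPM in at least 6 mice, Benjamini-Hochberg within each comparison); a gene was called at an adjusted P under 0.05, and SE is the log2 fold change over the square root of F. Replicates are mice of the same label group. DESeq2 1.42.0, limma 3.58.1 with voom, other scalings, no filter, log2(TPM + 1) and log2(TPM + 0.1) were alternatives. Correlations used log2 CPM (prior count 2), 100000 permutations within groups, or exact permutation within a range, across groups and without removing group means. The tests are two-sided. The count test was tested on simulated data.

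The 10 genes and the lists were chosen with earlier results of these data known. Genes named are the 10, the called genes of each list (at most 6 with the smallest adjusted P), the 5 genes with the pattern most like the contractile and the pericyte mean, and genes within 500 kb. The latter, the split of mice by Abcc9, and leaving out single mice for lists and correlations were added after seeing the data. Sequence sharing was counted in runs of 31 bases. The labels name the septum and ionizing radiation, and the study's methods ventricular tissue and X-rays. Counts limit precision: 3 counts correspond to 0.179 to 0.278 CPM.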

Additional observations from a re-analysis of the deposited data

Results flagged for a closer look

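In 3 of 30 sets of 6 mice (10 genes in 3 groups) the extreme mouse lay farther from its nearest neighbour than Dixon's 95% limit for 6 samples allows. Chance gives about 1 in 20 for independent, normally distributed values. These sets are CPM values of genes measured in the same mice, so the count of 3 is not a test of an excess. Tagln at 2 weeks had its highest value, 38.4 CPM, in 2wk 5. Cnn1 in controls had its highest value, 7.03 CPM, in control 5. Rgs5 in controls had its highest value, 308 CPM, in control 2.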

How the results depend on the processing

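The calls of Mylk and Cspg4 at 6 weeks held in all 28 alternatives run for each. Of 840 alternative values for the 10 genes, 771 kept direction and side of the threshold, 37 newly passed in the same direction and 0 lost a call. Another 32 changed sign, all where the fitted value was at most 0.14 in size. Among the sign changes Pdgfrb at 6 weeks also passed, on log2(TPM + 1) (0.30, limma adjusted P = 0.00924) and log2(TPM + 0.1) (0.31, limma adjusted P = 0.00918). The number of the 10 genes called at 2 weeks (0) became 3 with DESeq2, 4 with library size only, 5 with log2(TPM + 1) and 5 with log2(TPM + 0.1), and 0 to 2 when single mice were left out. At 6 weeks (2) it became 4, 6 and 6 with library size and the TPM scales. From 2 to 6 weeks (0) it became 1 with DESeq2 and 1 with limma voom, and 0 to 1 without single mice. Without TMM the median of all genes itself moved to 0.15 and 0.24 (library size) and to 0.18 and 0.29 (log2(TPM + 1)) at 2 and 6 weeks, so extra calls there are relative to a shifted centre. List genes called at 2 weeks (4) became 9 with DESeq2, 14 with library size, and 21 on both TPM scales; at 6 weeks (17) they became 26 and 39 and 39; from 2 to 6 weeks (7) they were 4 to 7 without single mice. Correlated pairs (3) became 0 without the 2 farthest mice, 6 with log2(TPM + 1) and 0 to 6 without single mice.

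Signs changed for Abcc9 from 2 to 6 weeks (-0.10 with limma voom, -0.0934 to 0.24 without single mice), Acta2 at 6 weeks (-0.0852 with limma voom, -0.010 with the replicate block, -0.23 to 0.18 without single mice), Cnn1 from 2 to 6 weeks (-0.15 to 0.36 without single mice) and Myh11 at 6 weeks (0.20 library size, 0.35 log2(TPM + 0.1), 0.32 log2(TPM + 1), -0.12 to 0.057 without single mice). They also changed for Pdgfrb from 2 to 6 weeks (0.0090 and 0.0087 on the TPM scales) and at 6 weeks (0.18, 0.31 and 0.30), Rgs5 at 2 weeks (0.086, 0.20 and 0.20, and -0.15 to 0.0027 without single mice), Smtn at 6 weeks (-0.0027 without control 4, up to 0.079 without control 2) and Tagln at 2 weeks (-0.10 to 0.21 without single mice). The causes were not tested.

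Replicate numbers do not pair the mice: same-numbered mice correlated between -0.08 and 0.11, and 3 of 18 mice correlated best with their own number. The replicate block left the calls of the 10 genes unchanged gave 4, 15 and 5 called list genes, and gave 586, 3549 and 542 calls over all genes instead of 755, 3760 and 802. Depth limits Cnn1, at 11 to 93 counts per library.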

Other observations

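The genes outside the lists whose log2 CPM over the 18 mice was most like the mean of the 6 contractile genes were Map3k19 (r = 0.77), Plekhg3 (0.77), Tbx20 (0.73), Kcna6 (0.72) and Tanc1 (0.72). For the mean of the 4 pericyte genes they were Zfp692 (r = 0.81), Strn4 (0.80), Atmin (0.76), Zfp429 (0.75) and Hint2 (0.74). These are the top values of 15054 genes and are given as a description, since all points share the same libraries and scaling. The member genes' own coefficients with those means ran from 0.43 (Smtn) to 0.80 (Myh11) and from 0.33 (Cspg4) to 0.74 (Rgs5).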
